A study of Mus musculus with 33 samples.

Results

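Jun, Atf3 and Batf encode AP-1 type transcription factors, and their RNA was followed in mouse spleen cells cultured with immunostimulatory CpG DNA. The members were all probes that the array's annotation assigns to these symbols. That gave 1 probe per gene, 3 genes of the 9672 with values (Entrez identifiers 16476 for Jun, 11910 for Atf3 and 53314 for Batf). Jun and Atf3 were measured on all 33 arrays and Batf on 32, with no value on the control ODN array of replicate 4 at 2 h.

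Spleen cells of female BALB/c mice aged 2 months were cultured for 2, 4 or 8 h with CpG ODN, with control ODN or in medium alone. An ODN is a short synthetic DNA oligodeoxynucleotide. The CpG ODN was an equal mixture of ODN 1555 and ODN 1466, the control ODN was an equal mixture of ODN 1612 and ODN 1471 without CpG motifs, each at 1 uM, and medium cultures had no ODN. Each group had 4 cultures at 2 and 4 h and 3 at 8 h, described as independent experiments. Every array compared Cy5-labelled spleen cell cDNA with Cy3-labelled Universal Mouse Reference RNA, so each value is a log2 ratio of spleen cells over that pool, centred here on the median of its array. Such ratios compare samples for 1 gene but not the levels of different genes. Between 7908 and 11129 probes had a value per array, and the number of arrays limits the precision. Whole spleen cultures hold many cell types, so more cells of a type and more RNA per cell cannot be told apart in any value here. As a check of the tissue, the mean ratio of the 6 B cell markers measured on all arrays lay between 1.60 and 2.99 over the groups' arrays, and that of 4 markers of non-splenic tissues lay between -2.80 and -1.41. Other spleen lists varied: NK cells (2 such markers) 1.69 to 3.52, T cells (2) -0.26 to 1.33, monocytes and macrophages (7) -1.11 to 0.54. Lists with 1 such marker were dendritic cells (0.71 to 2.10), neutrophils (2.31 to 5.81), erythroid cells (1.35 to 4.19) and platelets (-2.38 to 0.16).

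AP-1 factors bind DNA as pairs through a basic region and a leucine zipper. Jun, the classical activating subunit, pairs with Fos proteins and is phosphorylated by the JNK kinase. ATF3 is a stress-induced member of the family that, in mouse macrophages, restrains the transcription of inflammatory cytokine genes. BATF lacks a transactivation domain of its own, pairs with Jun proteins and binds with IRF4 or IRF8 at composite elements in lymphocytes and dendritic cells. Unmethylated CpG DNA is sensed by TLR9, mainly in B cells and dendritic cells of the spleen, and signals through MyD88 to NF-kB and to the MAP kinases that act on AP-1.

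The 250 bases before the RefSeq gene starts (build GRCm38.p6) are shown because the results turn on the RNA of these 3 genes. Capitals mark 8-base matches to the CRE-like letters TGACNTCA or to the variant TTACNTCA. The variant was added after the windows had been read, so its matches are a description of chosen letters.
Jun, chr4:95052223-95052472, minus strand: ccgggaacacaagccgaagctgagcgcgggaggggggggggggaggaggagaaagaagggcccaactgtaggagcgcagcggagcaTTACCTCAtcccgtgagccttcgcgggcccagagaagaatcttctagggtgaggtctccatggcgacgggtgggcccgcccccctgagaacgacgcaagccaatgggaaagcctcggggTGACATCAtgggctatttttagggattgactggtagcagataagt
Atf3, chr1:191183334-191183583, minus strand: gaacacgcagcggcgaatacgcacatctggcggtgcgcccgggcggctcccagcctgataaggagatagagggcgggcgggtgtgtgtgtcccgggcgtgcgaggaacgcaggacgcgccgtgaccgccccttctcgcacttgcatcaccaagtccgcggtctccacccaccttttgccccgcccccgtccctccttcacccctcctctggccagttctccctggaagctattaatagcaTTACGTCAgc
Batf, chr12:85686470-85686719, plus strand: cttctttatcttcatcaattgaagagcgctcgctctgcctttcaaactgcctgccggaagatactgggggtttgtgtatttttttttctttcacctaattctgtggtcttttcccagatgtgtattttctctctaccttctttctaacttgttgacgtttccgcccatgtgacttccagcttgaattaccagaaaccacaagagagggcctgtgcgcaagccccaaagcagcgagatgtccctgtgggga

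Letters were searched on both strands from 250 bases before to 50 bases after each start, and their background was taken over 32851 mouse windows of the same length. TGACNTCA was found in the Jun window, 45 bases before the start, and 8.83% of all windows hold it. TTACNTCA was found 164 bases before the Jun start and 10 bases before the Atf3 start, against 3.3% of all windows. The NF-kB core, GGG and CC with any 5 letters between, was found in the Jun and Atf3 windows, and 50.8% of all windows hold it. The AP-1 letters TGANTCA (7.81% of windows), the CRE letters TGACGTCA (1.79%, each also a match to TGACNTCA), the interferon-type pattern of GAAA, any 2 letters and GAAA (3.44%) and the composite pattern of GAAA followed directly by TGANTCA (0.125%, each also a match to TGANTCA) were in none of the 3 windows. The Batf window held none of the letters searched, which says only that they are not in this window. GC content was 61.2% for Jun, 65.2% for Atf3 and 46.4% for Batf, with 15, 24 and 7 CpG dinucleotides, against medians of 52.4% and 6 over all windows.

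The 3 genes were higher in CpG ODN cultures than in both controls at 8 h, and Batf was also higher at 4 h. At 4 h Jun differed by 0.86 from control ODN and by 0.79 from medium but was not called. At 2 h none of the 3 differed from either control by more than 0.24 on the log2 scale. Differences between groups were tested with limma's moderated test over all genes, and a gene was called at a Benjamini-Hochberg adjusted p under 0.05. Against control ODN, 0 of the 3 were called at 2 h, 1 at 4 h and 3 at 8 h, while 0.043%, 0.384% and 4.55% of all genes tested were called higher and, at 8 h, 5.45% lower. Against medium the counts were likewise 0, 1 and 3, beside 0.042%, 0.207% and 5.66% of all genes called higher. Both comparisons use the same CpG ODN arrays, so their counts are not independent. At 2 h the 6 unadjusted p of the 3 genes lay between 0.27 and 0.912.

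**Figure D1:**
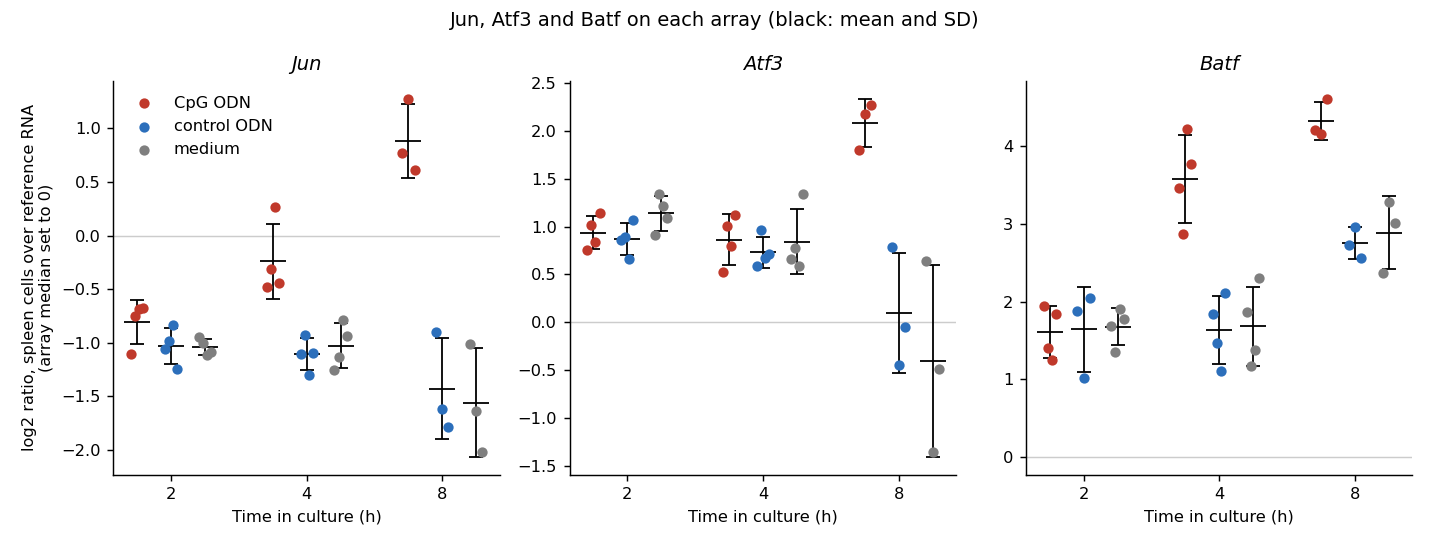
Log2 ratio of spleen cells over the reference RNA, centred per array, for Jun, Atf3 and Batf by time in h and treatment. Points are single arrays, and black lines are group means with SD. The CpG ODN arrays of Batf lie above all controls at 4 h and 8 h, those of Atf3 at 8 h, where they range from 1.79 to 2.27, and those of Jun at 4 h and 8 h. Of all genes, 2.22% lie apart in this way from control ODN and 1.89% from medium at 4 h. At 8 h the shares are 10.8% and 10.4%.

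Jun, the classical AP-1 subunit, was called at 8 h. At 2 h the Jun log2 ratios were -1.11, -0.75, -0.68 and -0.67 in CpG ODN cultures, against -1.06, -0.98, -0.84 and -1.24 with control ODN and -0.95, -1.01, -1.12 and -1.09 in medium. The groups overlapped, and the difference from control ODN was 0.23 ± 0.21 (SE; limma adjusted p = 1). At 4 h the Jun ratios were -0.48, -0.31, 0.27 and -0.44 in CpG ODN cultures, against -1.10, -0.92, -1.30 and -1.09 with control ODN and -1.25, -1.13, -0.79 and -0.94 in medium. Every CpG ODN culture lay above every control at 4 h, with a gap of 0.45 to control ODN and 0.31 to medium. The same non-overlap, higher with CpG ODN, was seen for 2.22% of all genes against control ODN and 1.89% against medium. The 4 h difference in Jun was 0.86 ± 0.21 against control ODN (95% interval 0.43 to 1.29). It did not pass the test over all genes (limma adjusted p = 0.0709), though it did with array weights (0.82, limma adjusted p = 0.0129). It stayed uncalled in 7 of 9 other settings and in all 8 fits leaving out 1 culture. Fitting the CpG ODN and control ODN cultures of 4 h alone gave a limma adjusted p of 0.378. Without CpG ODN replicate 3 at 4 h the difference was 0.69 (limma adjusted p = 0.541). Against medium the 4 h difference in Jun was 0.79 ± 0.21 (limma adjusted p = 0.188). At 8 h the Jun ratios were 0.77, 1.27 and 0.61 in CpG ODN cultures, against -0.90, -1.61 and -1.78 with control ODN and -1.01, -1.64 and -2.02 in medium. The groups did not overlap, as 10.8% and 10.4% of all genes did in this direction against control ODN and medium. Jun was 4.97-fold higher than with control ODN at 8 h, a log2 difference of 2.31 ± 0.24 (limma adjusted p = 4.57e-08), and 5.43-fold higher than in medium (limma adjusted p = 1.73e-08). The difference from control ODN ranked 58 from the highest of 9494 genes tested.

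Atf3, which in macrophages acts as a brake on cytokine genes, showed no separation of the treatments before 8 h. The Atf3 ratios at 2 h were 0.76, 1.01, 0.84 and 1.14 in CpG ODN cultures, against 0.86, 0.90, 0.66 and 1.06 with control ODN and 0.91, 1.34, 1.22 and 1.08 in medium. At 4 h they were 0.52, 1.01, 0.79 and 1.12 in CpG ODN cultures, against 0.58, 0.96, 0.67 and 0.71 with control ODN and 0.66, 0.78, 0.59 and 1.34 in medium. The 3 groups overlapped at both times, and the 4 h difference from control ODN was 0.13 ± 0.27 (95% interval -0.43 to 0.69), which still holds changes of moderate size in either direction. At 8 h the Atf3 ratios were 1.79, 2.18 and 2.27 in CpG ODN cultures, against 0.79, -0.45 and -0.05 with control ODN and 0.64, -1.36 and -0.49 in medium. All CpG ODN cultures lay above the controls, with gaps of 1.01 and 1.16, and replicate 1 of each control was nearest to them. Of all genes, 10.8% lay apart in this direction against control ODN and 10.4% against medium. Atf3 was 3.95-fold higher than with control ODN (1.98 ± 0.32 on the log2 scale, limma adjusted p = 5.34e-05) and 5.60-fold higher than in medium (2.48 ± 0.32, limma adjusted p = 1.28e-06). The SD of Atf3 at 8 h was 0.25 with CpG ODN, against 0.63 with control ODN and 1.00 in medium (n = 3 each).

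Batf, the IRF-associated member, was called at 4 h and at 8 h. The Batf ratios at 2 h were 1.95, 1.40, 1.25 and 1.84 in CpG ODN cultures, against 1.87, 1.02 and 2.04 with control ODN and 1.68, 1.35, 1.90 and 1.78 in medium. These groups overlapped, and the difference from control ODN was -0.03 ± 0.31 with 3 of 4 control arrays measured. At 4 h the Batf ratios were 3.46, 2.88, 4.22 and 3.77 in CpG ODN cultures, against 1.84, 1.46, 1.11 and 2.11 with control ODN and 1.86, 1.17, 1.38 and 2.31 in medium. Every CpG ODN culture was above every control, with gaps of 0.77 and 0.57, as for 2.22% of all genes against control ODN and 1.89% against medium. Batf was 3.87-fold higher than with control ODN at 4 h, a log2 difference of 1.95 ± 0.29 (limma adjusted p = 0.000246), the difference ranked 7 from the highest of 9630 genes. Against medium it was 3.74-fold higher (1.90 ± 0.29, limma adjusted p = 0.000399), but when the fit held only these groups the limma adjusted p was 0.0641. At 8 h the Batf ratios were 4.21, 4.16 and 4.61 in CpG ODN cultures, against 2.73, 2.97 and 2.56 with control ODN and 2.37, 3.29 and 3.02 in medium. The groups stayed apart by 1.19 and 0.87, as 10.8% and 10.4% of all genes lay apart in this direction. The 8 h difference was 1.57 ± 0.33 against control ODN (limma adjusted p = 0.00169) and 1.44 ± 0.33 against medium (limma adjusted p = 0.00353), and the first ranked 142 from the highest.

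None of the 3 genes was called between control ODN and medium. The control ODN minus medium differences of Jun were 0.01, -0.08 and 0.13 at 2, 4 and 8 h, and those of Batf were -0.04, -0.05 and -0.14. Those of Atf3 were -0.27, -0.11 and 0.50 ± 0.32. The 8 h value of Atf3 ranged from 0.0245 without medium replicate 2 to 1.02 without medium replicate 1, and was 0.16 and 0.77 without control ODN replicates 1 and 2. None of all genes tested was called between these controls with limma at any time (0%). Of 9239, 9637 and 9526 genes tested at 2, 4 and 8 h, 229, 176 and 379 had an unadjusted limma p under 0.05, a share below 0.05 each time. Each of the 3 genes overlapped between the controls at the times given.

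**Figure D2:**
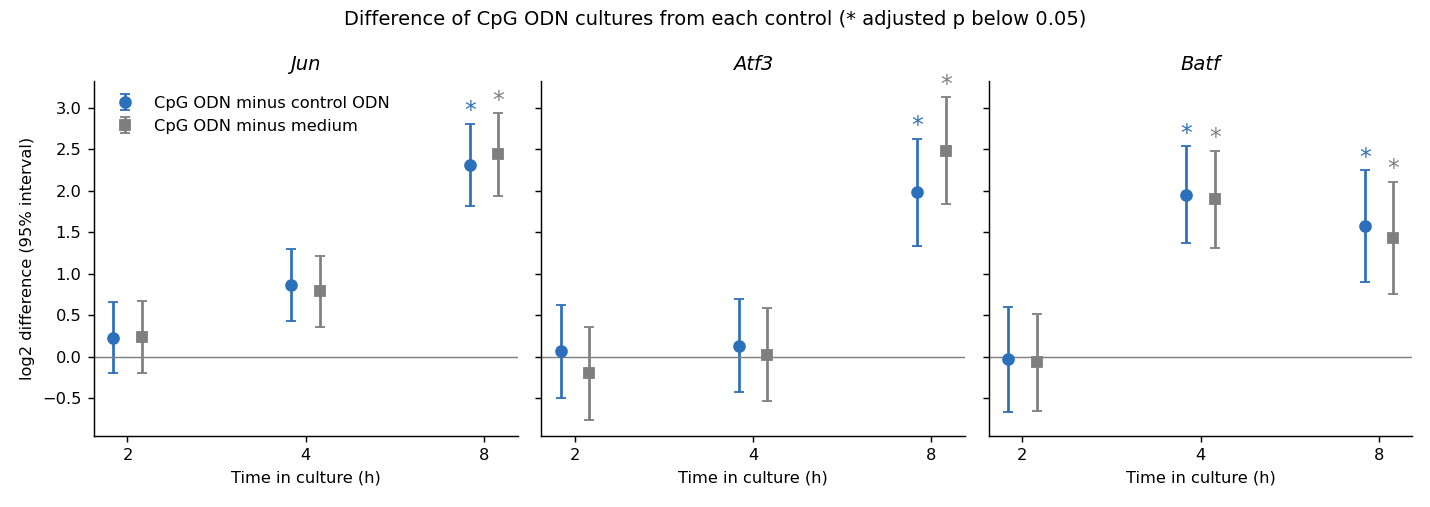
Log2 difference of CpG ODN minus control ODN and of CpG ODN minus medium at 2, 4 and 8 h for Jun, Atf3 and Batf, with 95% intervals from the limma fit. The 8 h intervals lie above 0 for all 3 genes, and at 4 h Batf stands at 1.95 against control ODN while Atf3 stands at 0.13.

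The change of the CpG ODN minus control ODN difference over time was tested in the same fit. From 4 h to 8 h that difference grew by 1.45 ± 0.32 for Jun (limma adjusted p = 0.00982) and by 1.85 ± 0.42 for Atf3 (limma adjusted p = 0.0119), whereas for Batf it changed by -0.38 ± 0.44 (limma adjusted p = 0.884). The share of all genes called with a growing difference over this interval was 1.25%. The Jun value was 1.25 without CpG ODN replicate 2 at 8 h (limma adjusted p = 0.0559), and the adjusted p was 0.0651 when the fit held only the groups compared. The Atf3 value was 1.58 without control ODN replicate 2 at 8 h (limma adjusted p = 0.0611). From 2 h to 4 h the difference in Batf changed by 1.99 ± 0.42, ranked 6 of 9260 genes, and did not pass (limma adjusted p = 0.262), in a comparison with 0.0108% of genes called. It passed without control ODN replicate 2 at 2 h (2.30, limma adjusted p = 0.0466), without CpG ODN replicate 2 at 4 h (2.22, limma adjusted p = 0.0442) and with array weights (2.33, limma adjusted p = 0.00467). The values for that interval were 0.64 ± 0.30 in Jun and 0.06 in Atf3, and neither passed. From 2 h to 8 h the difference grew by 2.08 ± 0.32 in Jun (limma adjusted p = 7.19e-05) and by 1.92 ± 0.42 in Atf3 (limma adjusted p = 0.00512), beside 2.13% of all genes. In Batf it grew by 1.61 ± 0.45 (limma adjusted p = 0.0439), a call that was lost in 10 of 14 fits leaving out 1 culture, with values from 1.41 to 1.92 and adjusted p up to 0.122. The 10 cultures were CpG ODN replicates 2 and 3 and control ODN replicates 1 and 3 at 2 h, and all 6 cultures of these groups at 8 h.

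Within CpG ODN cultures the 3 genes also moved over time. Between 2 h and 4 h Batf rose by 1.97 ± 0.29 (limma adjusted p = 0.00018), ranked 3 of 9625 genes, with 0.655% of all genes called higher. Jun differed by 0.56 ± 0.21 over that interval (limma adjusted p = 0.257) and Atf3 by -0.08 ± 0.27. Between 4 h and 8 h Jun rose by 1.12 ± 0.23 (limma adjusted p = 0.00124) and Atf3 by 1.22 ± 0.30 (limma adjusted p = 0.00722), with 4.15% of all genes called higher. The Atf3 call was lost without CpG ODN replicate 3 at 8 h (limma adjusted p = 0.0518). Batf differed by 0.74 ± 0.31 between these times and did not pass (limma adjusted p = 0.155). Over the whole interval from 2 h to 8 h the CpG ODN cultures rose by 1.69 ± 0.23 in Jun, 1.14 ± 0.30 in Atf3 and 2.72 ± 0.31 in Batf, where 8.45% of all genes were called higher.

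Over time without CpG DNA, Atf3 fell in medium, Batf rose in both controls and Jun passed in neither. In medium Atf3 fell by 1.54 from 2 h to 8 h (SE 0.30, limma adjusted p = 0.000645), while 5.3% of all genes were called lower, and the call was lost when the fit held only the groups compared (limma adjusted p = 0.0645). From 4 h to 8 h Atf3 in medium fell by 1.24 (SE 0.30, limma adjusted p = 0.042), where 0.345% of genes were called lower. That call was lost without any 1 of medium replicates 2, 3 and 4 at 4 h and replicates 2 and 3 at 8 h, and without replicate 2 at 8 h the value was -0.77. The Atf3 difference with control ODN from 2 h to 8 h was -0.77 and did not pass (limma adjusted p = 0.0999), though it passed at -1.12 without control ODN replicate 1 at 8 h (limma adjusted p = 0.0182). Batf rose from the 2 h to the 8 h cultures in medium by 1.21 ± 0.31 (limma adjusted p = 0.00795) and with control ODN by 1.11 ± 0.33 (limma adjusted p = 0.0279). Those comparisons called 9.26% and 7.61% of all genes higher. The medium call was lost without replicate 2 at 8 h (limma adjusted p = 0.0605) and with quantile normalization (0.94, limma adjusted p = 0.0552). The control ODN call was lost without replicate 2 at 2 h or any 1 replicate at 8 h, with adjusted p up to 0.157. With control ODN the 8 h minus 4 h difference of Batf was also positive, 1.12 ± 0.31 (limma adjusted p = 0.0456), where 1.85% of genes were called higher, and leaving out any 1 culture but control ODN replicate 4 at 4 h ended that call. In medium that difference was 1.21 ± 0.31 and did not pass (limma adjusted p = 0.0566), but array weights (1.28, limma adjusted p = 0.00523) brought it past the threshold, as did omitting medium replicate 1 at 8 h (1.47, limma adjusted p = 0.0116). Jun did not pass between 2 h and 8 h in medium (-0.52, limma adjusted p = 0.132) or with control ODN (-0.40, limma adjusted p = 0.305). Without medium replicate 1 at 8 h the value in medium was -0.79 (limma adjusted p = 0.0187).

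Ordered over the 9 groups, each gene had its highest mean in CpG ODN cultures at 8 h. Jun followed from 0.88 ± 0.35 (SD, n = 3) there to -0.24 ± 0.35 with CpG ODN at 4 h and -0.80 ± 0.21 with CpG ODN at 2 h (n = 4 each). Each of these steps was larger than the SD of either neighbour. So was the next step of 0.22 to medium at 4 h, though the values of these neighbours overlapped. Among the 6 control groups, from -1.03 to -1.56, each step was below the larger SD of the neighbours. Atf3 stood at 2.08 ± 0.25 with CpG ODN at 8 h and next at 1.14 ± 0.18 in medium at 2 h, with no overlap. The means of the other groups at 2 and 4 h ran from 0.94 to 0.73 in steps within the spread, and the lowest were control ODN at 8 h with 0.10 ± 0.63 and medium at 8 h with -0.40 ± 1.00. Batf stood at 4.33 ± 0.25 with CpG ODN at 8 h and 3.58 ± 0.56 with CpG ODN at 4 h. Medium at 2.89 ± 0.47 and control ODN at 2.75 ± 0.20 at 8 h followed, neighbours that did not differ beyond their spread, and the other 5 groups lay between 1.61 and 1.68.

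The members were compared within each array by the difference between the log2 ratios of a pair of members. At 4 h Batf minus Atf3 was 2.72 ± 0.65 in CpG ODN cultures and 0.90 ± 0.50 in control ODN cultures (SD, n = 4 each), with an exact two-sided permutation p of 0.0286, the smallest these groups allow. Jun minus Atf3 at 4 h was -1.10 ± 0.45 with CpG ODN and -1.83 ± 0.12 with control ODN, also at an exact p of 0.0286. Both had an adjusted p of 0.129 over the 9 exact permutation tests made, so neither passed. Batf minus Jun was 3.82 ± 0.44 with CpG ODN and 2.73 ± 0.40 with control ODN at 4 h (exact permutation p = 0.0571, adjusted 0.171). At 8 h Batf minus Jun was 3.44 ± 0.56 with CpG ODN and 4.18 ± 0.50 with control ODN (n = 3 each, exact permutation p = 0.2). With 3 cultures against 3 the exact test cannot go below 0.1.

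**Figure D3:**
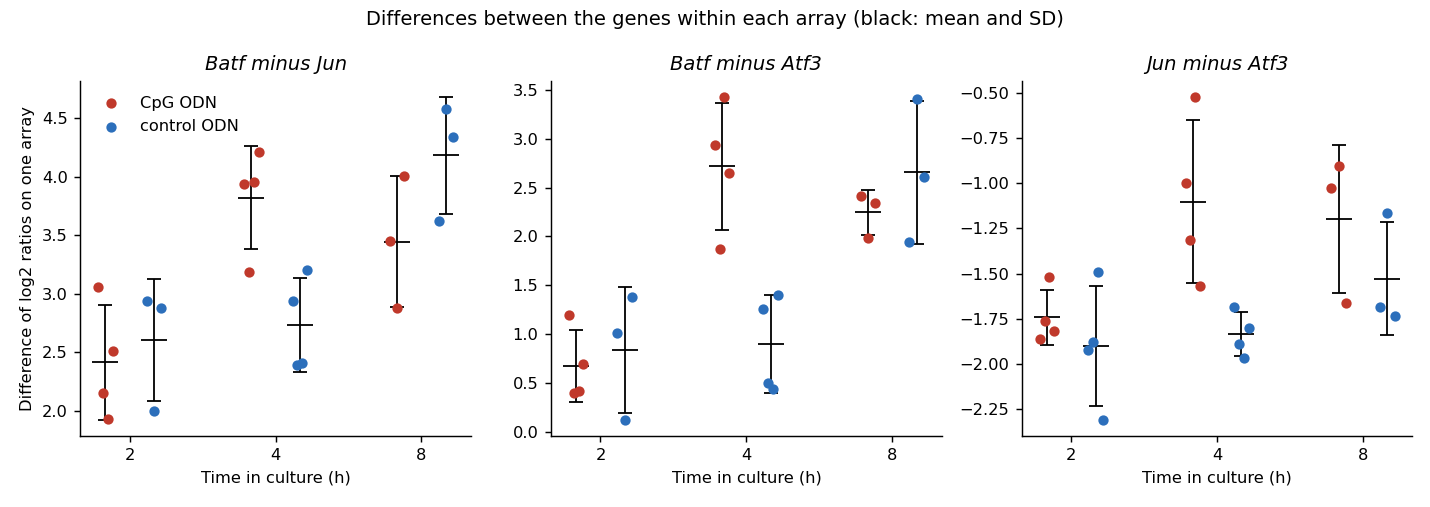
Difference between the log2 ratios of a pair of members on each array, by time in h and treatment. Points are arrays of CpG ODN and control ODN cultures, and black lines are means with SD. At 4 h the CpG ODN arrays average 2.72 for Batf minus Atf3, against 0.90 with control ODN, and at 8 h the groups average 2.25 and 2.66.

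Across arrays, Jun and Atf3 had a Pearson r of 0.753 (33 arrays), Jun and Batf 0.582 and Atf3 and Batf 0.137 (32 arrays each). These are descriptions over arrays that share treatments and times. The 5 genes most like Jun, among 7365 with at least 30 arrays in common, were Il6 (0.915), Cxcl10 (0.891), Cmpk2 (0.884), Gadd45b (0.882) and Ccnd2 (0.874). Il6 and Cxcl10 encode a cytokine and an interferon-induced chemokine, Gadd45b a stress sensor and Ccnd2 a D-type cyclin. Their CpG ODN minus control ODN differences at 8 h ran from 1.64 for Gadd45b to 4.96 for Cxcl10. The 5 most like Atf3 were Rnf19b (0.881), Polr3d (0.877), Rsl24d1 (0.875), Tbl3 (0.874) and Atic (0.865). Polr3d is a subunit of RNA polymerase III, Rsl24d1 and Tbl3 act in ribosome assembly and Atic in purine synthesis. Their differences at 4 h were between 0.08 for Rsl24d1 and 0.39 for Rnf19b, and at 8 h between 1.22 for Polr3d and 1.74 for Atic. The 5 most like Batf, among 7158 genes, were Ifi47 (0.932), Casp4 (0.919), Pim2 (0.912), Swap70 (0.891) and Trim30a (0.887). Ifi47 is an interferon-induced GTPase, Casp4 an inflammatory caspase and Pim2 a survival kinase. Their differences at 4 h were between 0.83 for Casp4 and 1.74 for Swap70, and at 8 h between 0.60 for Pim2 and 3.04 for Trim30a. Each set was chosen by likeness over these same arrays, so such differences follow in part from the choice. No gene was among the 5 of more than 1 member. With Spearman's rho in place of Pearson's r, 3, 2 and 4 of the 5 genes of Jun, Atf3 and Batf were again among the 5.

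**Figure D4:**
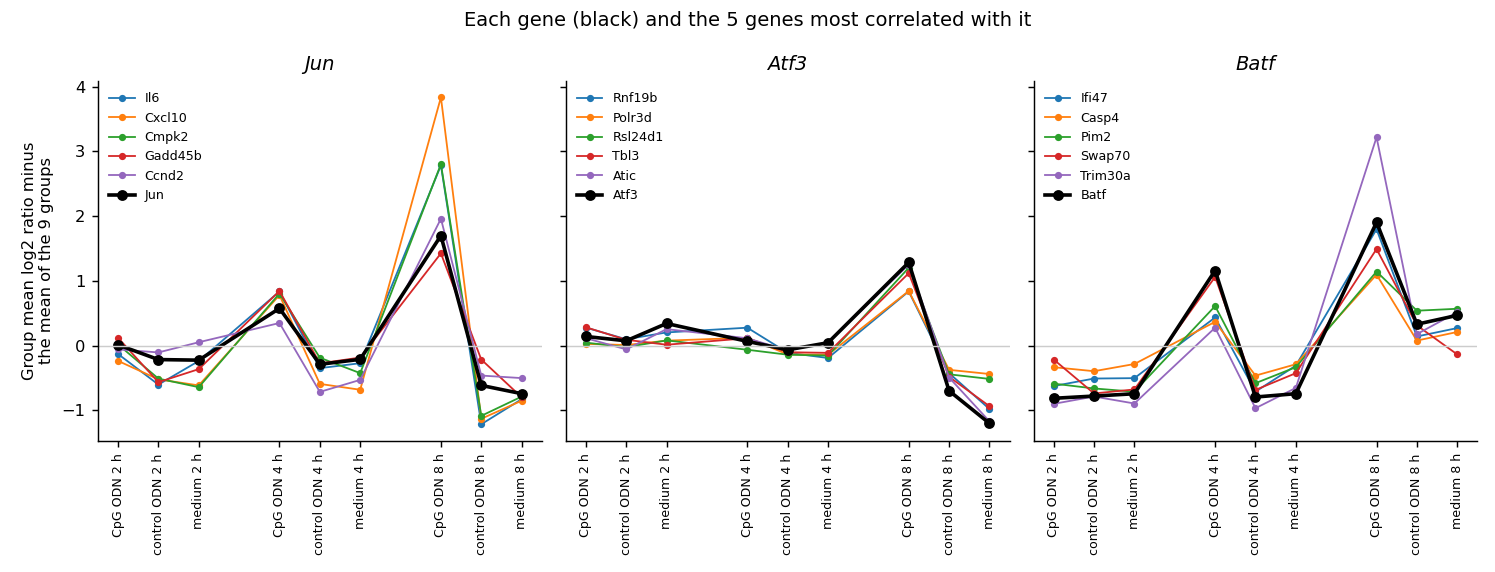
Group means of the log2 ratio, minus each gene's mean over the 9 groups of treatment and time in h, for each member and the 5 genes with the highest Pearson correlation to it. Genes near Atf3 differ by at most 0.39 between CpG ODN and control ODN at 4 h, and those near Batf by at least 0.83. As the genes were chosen by correlation over the same arrays, this contrast follows in part from the choice.

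Other AP-1 family genes did not pass the test. Of 14 further JUN, FOS, BATF, ATF3-like and MAF genes 8 had values, and 0 were called with limma against either control at any time, with 0, 1 and 1 at an unadjusted p under 0.05 against control ODN at 2, 4 and 8 h. Their median differences from control ODN were 0.16, 0.05 and -0.12, against -0.02, -0.01 and -0.12 over all genes. Fos, the main dimer partner of Jun, differed by 0.10 ± 0.25, -0.11 ± 0.25 and -0.45 ± 0.29 at 2, 4 and 8 h. Junb, a second Jun protein, differed by 0.18 ± 0.21, 0.56 ± 0.21 and 0.61 ± 0.25 (limma adjusted p = 0.126 at 8 h). Of 24 ATF, CREB, CEBP and other bZIP genes 19 had values, and the only one called against control ODN was Cebpd, a C/EBP factor of acute inflammation, at 0.91 ± 0.28 at 8 h (limma adjusted p = 0.0341).

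**Figure D5:**
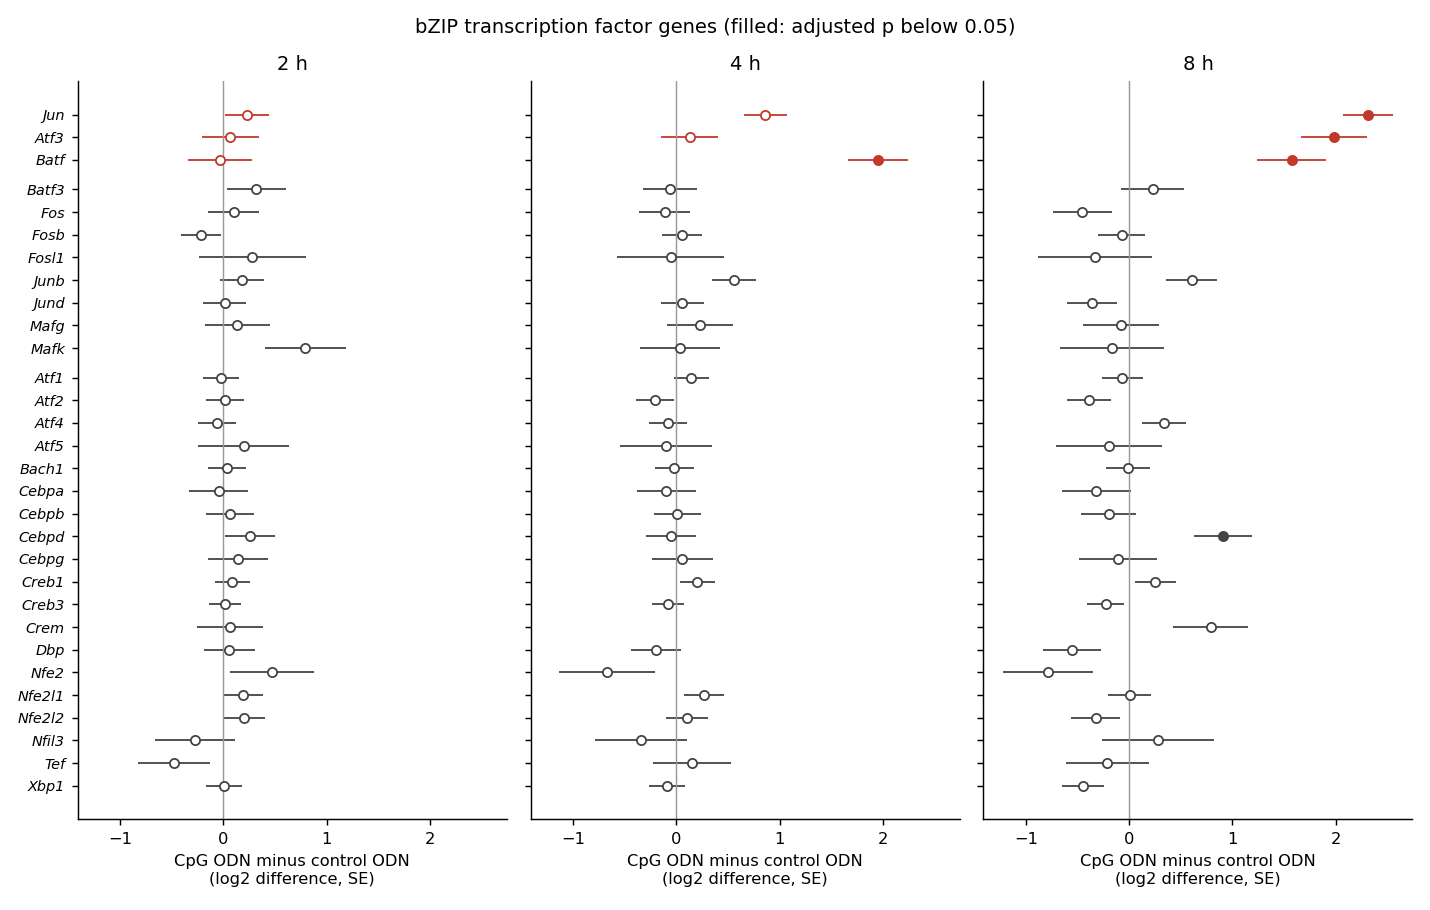
CpG ODN minus control ODN log2 difference at 2, 4 and 8 h for Jun, Atf3, Batf and the other AP-1, ATF, CREB, CEBP and further bZIP genes with values, with SE bars from the limma fit; filled points passed at an adjusted p under 0.05. Jun at 2.31, Atf3 at 1.98 and Batf at 1.57 lie to the right of the other genes drawn at 8 h, where Fos is at -0.45 and Junb at 0.61.

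Upstream of AP-1, 19 of 31 kinase and adaptor genes between TLR9 and the MAP kinases had values. None was called with limma against control ODN at 2 h (1 at an unadjusted p under 0.05), 1 rose at 4 h, and 2 rose and 1 fell at 8 h. Map3k8, the kinase that feeds the ERK pathway, rose by 1.22 ± 0.26 at 4 h (limma adjusted p = 0.0265) and by 1.23 ± 0.35 at 8 h (2 measured cultures in each group). Myd88, the adaptor of TLR9, rose by 1.41 ± 0.25 at 8 h (limma adjusted p = 0.000202). Mapk14, the p38 alpha kinase, fell by 0.95 at 8 h (SE 0.16, limma adjusted p = 0.000148). Against control ODN, 0.384% of all genes were called higher at 4 h, and 4.55% higher and 5.45% lower at 8 h, which is the background for all gene lists. Of 18 MAP kinase phosphatases and other regulators that act on these kinases or on AP-1, 14 had values, with 0 called at 2 h (1 at an unadjusted p under 0.05), 2 higher at 4 h, and 2 higher and 1 lower at 8 h. Gadd45b rose by 1.12 ± 0.20 at 4 h and 1.64 ± 0.23 at 8 h, and Gadd45g by 1.00 ± 0.21 and 1.77 ± 0.22. Both encode small stress proteins, known to bind and activate a MAP kinase kinase kinase upstream of p38 and JNK. Itch, a ubiquitin ligase that targets Jun proteins, fell by 0.83 at 8 h (SE 0.20, limma adjusted p = 0.0066).

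Immediate early regulators outside AP-1 moved both ways, with 19 of 24 measured, 1 higher at 4 h, and 1 higher and 3 lower at 8 h. Myc rose by 1.22 ± 0.25 at 4 h (limma adjusted p = 0.0115) and by 1.56 ± 0.29 at 8 h against control ODN. At 8 h Rgs2, a regulator of G protein signalling, fell by 2.01 (SE 0.31, limma adjusted p = 2.61e-05), Btg2, an antiproliferative gene, by 1.04 (SE 0.26) and Egr1, a zinc finger factor, by 0.82 (SE 0.27, limma adjusted p = 0.0482). Of 19 partners of BATF or JUN 14 had values, and 4 rose at 8 h. At 2 and 4 h none passed with limma, while 0 and 3 had an unadjusted p under 0.05. Irf4, a direct partner of BATF, rose by 1.36 ± 0.31 at 8 h (limma adjusted p = 0.00325) and stood at 1.03 ± 0.27 at 4 h (limma adjusted p = 0.109). Irf8 rose by 1.27 ± 0.35 and Stat3 by 1.19 ± 0.31 at 8 h. The fourth, Ncoa1, had only 2 control ODN cultures measured.

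Genes known as AP-1 or ATF3 targets in leukocytes included genes called at 2 h, when none of the 3 members was. Of 27 measured out of 31, 3 rose at 2 h, 6 at 4 h and 10 at 8 h against control ODN, and 0 fell, where 0.043%, 0.384% and 4.55% of all genes were called higher and 5.45% lower at 8 h. Tnf rose by 2.28 ± 0.24, 2.97 ± 0.24 and 2.51 ± 0.27 at 2, 4 and 8 h, and Il12b, the p40 chain of IL-12, by 2.85 ± 0.28 and 3.00 ± 0.36 at 4 and 8 h. Il6 rose by 1.18 ± 0.20 at 4 h and 4.00 ± 0.24 at 8 h. Cd69, an activation marker of lymphocytes, rose by 3.19 ± 0.43 at 8 h. This list and the others were drawn up with results of these data known, so their counts are not independent evidence.

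Markers of cell types moved with the 8 h comparison. Against control ODN at 8 h, 4 of 14 measured B cell markers and 4 of 12 T cell markers were lower and none was higher. Their median differences were -0.54 and -0.57, against -0.12 over all genes. Medians of other lists were -0.60 for monocytes and macrophages, -0.62 for neutrophils and -0.49 for erythroid cells. Those of platelets, dendritic cells, NK cells and non-splenic tissues were -0.19, -0.17, -0.09 and -0.21. Against medium, 3 B cell markers and 1 T cell marker were lower, with medians of -0.20 and -0.40. Lower against control ODN were the B cell genes Fcrla (-2.18), Cd79b (-1.87), Cr2 (-1.14) and Cd37 (-1.13). The T cell genes were Cd3g (-1.43, with 2 CpG ODN cultures measured), Lat (-1.20), Cd3e (-1.01) and Cd5 (-0.90). The mean ratio of the 6 B cell markers on all arrays ranged from 1.60 to 2.18 in CpG ODN cultures at 8 h, against 2.51 to 2.94 with control ODN and 2.40 to 2.99 in medium. The 7 monocyte and macrophage markers ranged from -1.11 to -0.32 in CpG ODN cultures, against -0.51 to 0.21 with control ODN and -0.84 to 0.01 in medium. Of 11 tested at 8 h against control ODN, Fcgr1 was higher (0.99 ± 0.30) and Cd14 (-1.53 ± 0.30) and Vcam1 (-1.01 ± 0.24) were lower, within a span of -1.53 to 0.99. Of 6 platelet markers Itgb3 was higher (0.69) and Gp9 lower (-0.75). None passed with limma among markers of NK cells (8 tested, 2 at an unadjusted p under 0.05), dendritic cells (5, 0), neutrophils (8, 1), erythroid cells (6, 0) or non-splenic tissues (11, 0). Their part in the 8 h values of Jun, Atf3 and Batf was not tested. At 2 and 4 h none of the marker lists held a gene called with limma against control ODN, while 0 to 2 genes of a list had an unadjusted p under 0.05, and 0.384% of all genes were called higher at 4 h.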

How the data were processed

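The authors deposited log ratios of each probe on each array, which were read as log2 values of the Cy5 over the Cy3 signal. Per the labels, Cy5 marked the spleen cells and Cy3 the reference, with no swapped dye. The log base is not stated, and base 2 was taken from the range of -6.51 to 8.54. How the authors processed the images and filtered and normalized the spots is not given in the sources used here. Array medians lay between -0.0848 and 0.0236.

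Probes were named from a platform annotation that can be old: of 16720 probes, 14656 had 1 symbol, 6 several and 2058 none, and 11303 had values. Each array was centred on its median. For a gene with several probes, the probe with the fewest missing values was used, the first in probe order on ties. One mean per group was fitted to all 33 arrays with limma 3.58.1 in R 4.3.3, and p-values were adjusted by the Benjamini-Hochberg method over all genes of a comparison with at least 2 measured arrays in each group. On data simulated for the 8 h comparison of CpG ODN with control ODN (9494 genes), 49% of genes changed by 1 on the log2 scale and 95% of those changed by 2 were recovered, with 4 false calls. The simulation raised 100 genes by each amount and lowered none. Its noise was normal, independent between arrays and of equal spread over the groups, so the real arrays may behave otherwise. Member pairs were compared with exact two-sided permutation tests over arrays.

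The genes named besides the members were the 5 most correlated with each, up to 4 called genes of each list by size, and Fos and Junb. The members and lists were chosen with earlier results of these data known. Alternatives covered the normalization, the groups in the fit, replicate blocks, array weights, the probes used, 4 arrays with low database numbers, and each array left out. Equal replicate numbers paired the samples only in part by the correlation of their deviations, so replicate blocks were kept as alternatives. Same-numbered pairs of groups ranged from -0.184 to 0.736 at 2 h, -0.412 to 0.699 at 4 h and -0.0851 to 0.653 at 8 h. Differently numbered pairs ranged from -0.621 to 0.441, -0.704 to 0.677 and -0.514 to 0.358. Whether equal numbers share an experiment was left unresolved. Control ODN and medium at 8 h did correlate, at 0.484, 0.653 and 0.645. Promoter windows came from RefSeq, build GRCm38.p6, and all 3 members matched by symbol. A planned comparison of the protein sequences was not run, and the ODN sequences are not used here.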

Additional observations from a re-analysis of the deposited data

Results flagged for a closer look

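The CpG ODN minus control ODN difference was larger at 8 h than at an earlier time, by a test of the change itself (limma), in 5 cases. For Jun it grew by 1.45 from 4 h to 8 h and by 2.08 from 2 h to 8 h. For Atf3 it grew by 1.85 from 4 h to 8 h and by 1.92 from 2 h to 8 h. For Batf it grew by 1.61 from 2 h to 8 h. A sample far from the others was looked for in 17 sets of 4 values, each of 1 gene in 1 group at 2 or 4 h. Of these sets 0 held one. The 8 h groups, with 3 arrays each, were not among them.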

How the results depend on the processing

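Over 78 results and 1214 alternative values, 522 values from other settings and 553 from leaving out 1 array kept direction and call or stayed near the count. The 8 h calls of Jun, Atf3 and Batf against both controls, and the 4 h call of Batf against control ODN, held in every alternative run. Their limma adjusted p rose in some runs, up to 0.0227 for Atf3 and 0.0374 for Batf against medium at 8 h. For Batf against control ODN at 4 h it rose up to 0.0459.

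Calls were lost when the fit held only the groups compared for Batf in CpG ODN minus medium at 4 h (1.90), the Jun change from 4 h to 8 h (1.45), Atf3 in medium from 4 h and 2 h to 8 h (-1.24 and -1.54), and Batf with control ODN from 4 h and 2 h (1.12 and 1.11). Quantile normalization ended the calls of Atf3 in medium from 4 h (-1.18), Batf with control ODN from 4 h and 2 h (0.83 and 0.78), Batf in medium from 2 h (0.94) and the Batf change from 2 h to 8 h (1.54). Without the 4 arrays of low database number, Atf3 in medium from 4 h was no longer called (-1.31). Calls were gained with array weights for Jun at 4 h (0.82), Jun in medium from 2 h and 4 h (-0.76 and -0.86), Atf3 with control ODN from 2 h (-0.88), Batf in medium from 4 h (1.28) and the Batf change from 2 h to 4 h (2.33).

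The labels do not say that equal replicate numbers mark 1 experiment, and 7 of 12, 8 of 12 and 6 of 9 same-numbered pairs at 2, 4 and 8 h deviated together at a correlation over 0.1. With the replicate block within each time Jun at 4 h passed against control ODN (0.86, limma adjusted p = 0.0303), and Batf in control ODN minus medium at 2 h was 0.019. With the replicate block shared across times, that value was 0.0729 and Batf in medium from 4 h to 8 h passed (1.32). The block within each time called 1489 genes against control ODN at 8 h, and 7, 33 and 1698 against medium at 2, 4 and 8 h. It could not be fitted to changes over time within a treatment. Where control ODN and medium at 8 h correlated by number, the block gave no call for Jun, Atf3 or Batf.

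Differences near 0 changed sign. With quantile normalization these were Batf at 2 h against control ODN (0.14) and medium (0.12), Batf between controls at 4 h (0.055), Jun and Batf in medium from 2 h to 4 h (-0.0014 and -0.12), the Atf3 change from 2 h to 4 h (-0.0362), and at 2 h Jun minus Atf3 (-0.029) and Batf minus Jun (0.0291). Without centring they were Atf3 at 4 h against medium (-0.0039) and Batf in medium from 2 h to 4 h (-0.0115), which was -0.14 with array weights. Without the 4 arrays they were Atf3 at 4 h against medium (-0.0394), the Atf3 change from 2 h to 4 h (-0.0048), Batf in medium from 2 h to 4 h (-0.0595) and Batf between controls at 4 h (0.0089).

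Genes called against control ODN numbered 37 at 4 h and 949 at 8 h. They were 9 and 564 with only the compared groups, 75 at 4 h with array weights, 21 at 4 h for genes measured on all arrays, and 626 at 8 h with quantile normalization. Against medium 4, 21 and 1115 genes were called at 2, 4 and 8 h. Array weights gave 122, 84 and 1995, only the compared groups gave 5 at 4 h and 315 at 8 h, quantile normalization 8 at 2 h, genes on all arrays 13 at 4 h, and leaving out the 4 arrays 12 at 4 h.

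Leaving out 1 array gave 19 to 39 and 557 to 887 genes against control ODN at 4 and 8 h, and 4 to 11 and 690 to 1415 against medium at 2 and 8 h. For Jun the control ODN minus medium differences ranged from -0.0561 to 0.0796, -0.15 to 0.0035 and -0.14 to 0.40 at 2, 4 and 8 h, the change from 4 h to 8 h from 1.25 to 1.72, and the medium values from -0.0676 to 0.0888 (2 h to 4 h), -0.80 to -0.30 (4 h to 8 h) and -0.79 to -0.29 (2 h to 8 h). For Atf3 the ranges were -0.0040 to 0.13 against control ODN at 2 h, -0.0666 to 0.19 against medium at 4 h, -0.19 to 0.0552 between controls at 4 h, -0.0235 to 0.18 and 1.58 to 2.20 for the changes from 2 h to 4 h and from 4 h to 8 h, -0.16 to 0.0383 and 1.11 to 1.36 within CpG ODN over the same intervals, -1.77 to -0.77 in medium from 4 h and -1.12 to -0.50 with control ODN from 2 h to 8 h. For Batf they were -0.35 to 0.16 against control ODN and -0.18 to 0.0493 against medium at 2 h, -0.23 to 0.28, -0.22 to 0.16 and -0.40 to 0.0607 between controls at 2, 4 and 8 h, 1.77 to 2.30 and 1.41 to 1.92 for the changes from 2 h to 4 h and 2 h to 8 h, -0.33 to 0.18 and 0.95 to 1.28 with control ODN and -0.21 to 0.17 and 1.01 to 1.47 in medium from 2 h to 4 h and 4 h to 8 h, and from 2 h to 8 h 0.80 to 1.31 with control ODN and 1.01 to 1.47 in medium. Batf minus Atf3 at 2 h ranged from -0.52 to 0.11. Where these calls or counts changed, the cause was not tested. The number of arrays, 3 to 4 per group, limits the precision, and the table gives no signal over background.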
